A study of Mus musculus with 8 samples.

Results

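The bZIP (basic leucine zipper) genes described here are the dimer partners and relatives of JUN outside the JUN family: the FOS family genes Fos, Fosb, Fosl1 and Fosl2, the genes of the ATF3 branch, Atf3 and Jdp2, and Bach1 with the small MAF genes Maff, Mafg and Mafk. They were chosen by name, with earlier results of these data known, and make up 10 of the 50600 genes in the table. Their RNA was measured in 8 bulk libraries of mouse embryonic stem cells named JUN TetON, in which doxycycline switches on a JUN transgene. The cells carried the OG2 Oct4-GFP reporter (genotype label c-Jun_TetOn_mESC, mixed 129SVJ, C57B6 and CBA background), were grown without feeders in 2i/LIF medium, and all received 2 µg/ml doxycycline, for 6 h by the sample labels. The study's legend for these libraries gives the same time for the compounds but a longer one for JUN induction, so the time with doxycycline is not settled. The 4 groups of 2 libraries differed in what was added with it: the solvent DMSO, PFI-3, which binds the bromodomain of BRG1, BI-9564, which binds those of BRD7 and BRD9, or both compounds (P+B). BRG1 is an ATPase of the BAF chromatin remodelling complexes, and BRD7 and BRD9 are accessory subunits of different forms of that complex. All 4 groups therefore had JUN induced, no library without doxycycline was analysed here, and no value below is a response to JUN itself. The number of clones behind the line is not given in the sources used here, nor whether replicates came from separate cultures, so p-values measure the spread between these libraries, which may be technical.

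JUN binds DNA as a dimer, and the AP-1 factor it forms with a FOS protein is more stable than the JUN homodimer. FOS proteins cannot form homodimers and need a JUN partner, whereas small MAF proteins, which lack an activation domain, pair with themselves, with BACH1 or with NRF2. ATF3 and JDP2 pair with JUN and are known mainly as repressors, and BACH1 with a small MAF represses antioxidant and heme-degrading genes.

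All 10 proteins hold the basic-region signature of bZIP factors, an asparagine followed 8 residues later by an arginine, which contacts DNA. The coding stretch for that signature, from the GENCODE M21 transcripts of GRCm38, is shown here because it is the part the genes share and because it shows how far reads from one could be taken for another. Capitals mark the codon of the asparagine and the last 2 codons, cysteine and arginine.
Fosl1: AACaagctagcagctgctaagTGCAGA
Fosl2: AACaagctagctgcagccaagTGTCGG
Fos: AATaagatggctgcagccaagTGCCGG
Fosb: AACaagctggctgcagctaagTGCAGG
Atf3: AATaaaattgctgctgccaagTGTCGA
Jdp2: AACaaagtcgctgcagccagaTGCCGG
Bach1: AACagaatcgccgcgcaacgcTGTCGC
Maff: AACcgcggctacgcggccagcTGCCGC
Mafg: AACcggggctacgcggccagcTGCCGC
Mafk: AACagaggctacgcggctagcTGTCGC

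Between 12 and 26 of these 27 bases were identical in any pair of the genes. Maff and Mafg were the closest pair, with 26 of 27, and Fosl1 and Fosl2 shared 21. Over whole transcripts, the longest exact run shared by any of the 45 pairs was 23 bases. The encoded proteins ranged from 156 residues for MAFF and MAFK to 739 for BACH1, with 273 for FOSL1, 326 for FOSL2 and 181 for ATF3.

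RefSeq start sites on GRCm38.p6 were matched for 9 of the 10 genes (all except Fosl1), in 13 windows of 250 bases before to 50 after a start. The AP-1 motif TGACTCA, searched on both strands, occurred in 5.2% of all 32851 windows and in 0 of the 13. The CRE motif TGACGTCA, found in 1.79% of all windows, occurred in 1 Maff window, and the ATF-type letters TTACGTCA, found in 0.5%, occurred in the Atf3 window. These matches describe letters only. The 150 bases before the start are shown for those 2 genes and for Fosl2, whose RNA changed, with matched motifs in capitals, 5′ to 3′ on the gene's strand.
Atf3, chr1:191183334-191183483, minus strand: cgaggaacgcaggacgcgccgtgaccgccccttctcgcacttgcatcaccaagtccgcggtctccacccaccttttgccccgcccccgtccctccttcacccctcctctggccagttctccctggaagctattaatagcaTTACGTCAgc
Fosl2, chr5:32136322-32136471, plus strand: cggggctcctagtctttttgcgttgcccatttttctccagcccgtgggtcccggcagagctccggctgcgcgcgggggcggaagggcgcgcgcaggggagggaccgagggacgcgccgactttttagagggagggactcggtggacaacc
Maff, chr15:79347370-79347519, plus strand: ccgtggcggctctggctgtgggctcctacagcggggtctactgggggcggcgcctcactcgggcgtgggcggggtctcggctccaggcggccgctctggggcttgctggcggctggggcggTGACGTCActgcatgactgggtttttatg

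Levels are TPM values, a unit that corrects for transcript length and library size, which the authors deposited as whole numbers. The 8 libraries summed to between 991574 and 991897. Read depth is unknown, so steps of 1 TPM are the limit of precision for low genes. The labelled cell type held: the 7 embryonic stem cell markers summed to 1407 to 2042 TPM in every library. The 8 fibroblast markers summed to 1 to 5 TPM, with Dcn, Col1a2 and Lum at 0 throughout. The stem cell marker sums were 1657 to 1838 in DMSO, 1845 to 2042 in PFI-3, 1407 to 1653 in BI-9564 and 1533 to 1785 in P+B. PFI-3 thus lay above DMSO and BI-9564 below it. Most of each sum was Pou5f1 (1104 to 1333 TPM), so the sum says little about the other markers. Differences were tested with limma on log2(TPM + 1) across the 10222 genes averaging 5 TPM or more, and a gene was called when its Benjamini-Hochberg adjusted p was under 0.05 and its fold change was 1.5 or larger. Log2 fold changes are on that scale and understate the change of low genes. Fos, Fosb and Jdp2 lay under the minimum, which left 7 of the 10 genes tested.

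In P+B, the RNA of Fosl1, Fosl2 and Atf3 fell against DMSO, and none of the tested genes was called higher. These were 3 of 7 tested genes called, all lower, where 4% of all tested genes were called and 2.72% were called lower. None of the 7 was called with PFI-3 alone, where 0% of all genes were called, nor with BI-9564 alone, where 0.108% were. At an unadjusted limma p under 0.05 there were 3 of 7 with PFI-3, all lower (Fosl1, Atf3 and Bach1), and 1 of 7 with BI-9564 (Fosl1, lower), beside 6.79% and 14.9% of all tested genes. In bulk RNA, fewer cells of a kind and less RNA per cell cannot be told apart.

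Fosl1 was called against DMSO whichever single library was left out, with limma adjusted p values up to 0.0463. Atf3 was not called without DMSO replicate 1 (limma adjusted p = 0.0587), DMSO replicate 2 (0.0678) or P+B replicate 1 (0.0533), and Fosl2 was not called without DMSO replicate 1 (0.107), DMSO replicate 2 (0.0986) or P+B replicate 2 (0.110). When only the DMSO and P+B libraries were fitted, which leaves fewer libraries to estimate the spread, 0 of the 7 were called and Fosl1 had an adjusted p of 0.100.

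**Figure D1:**
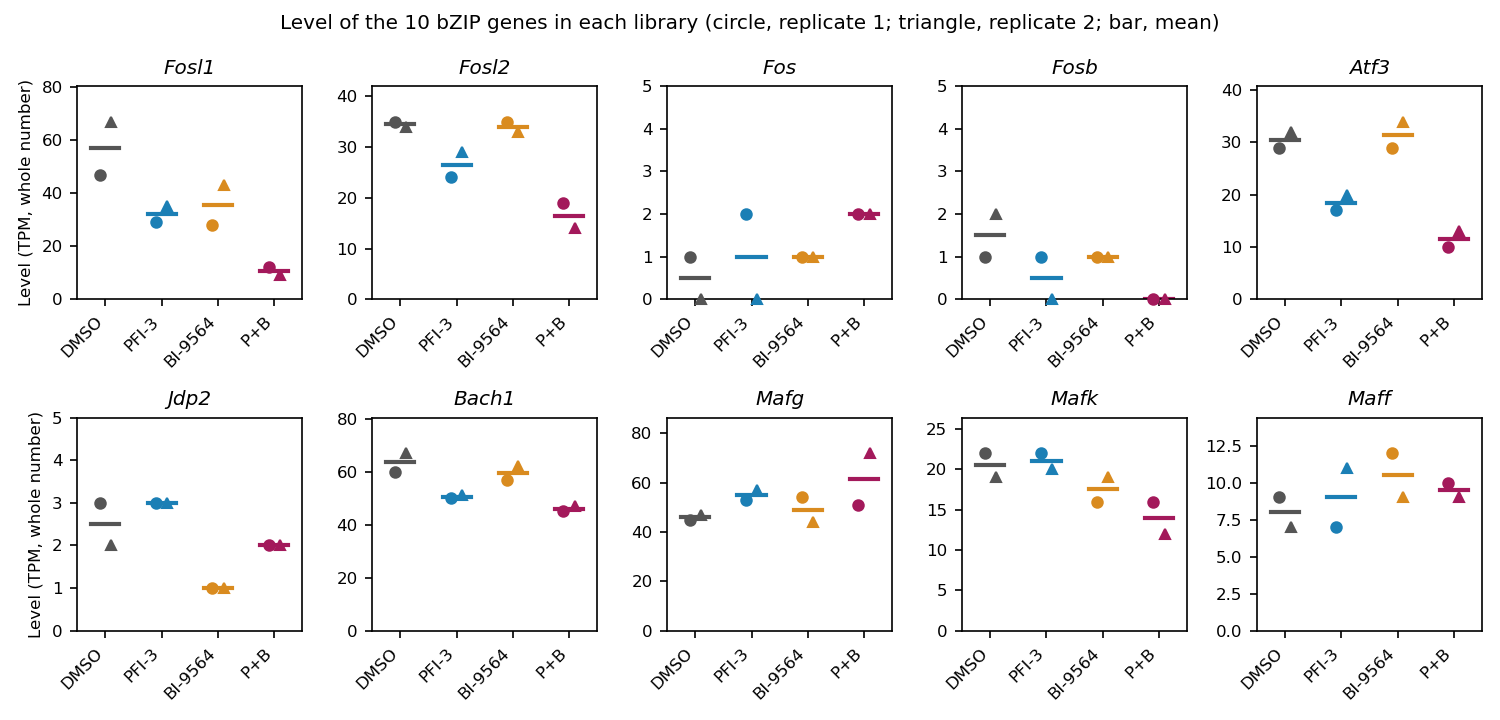
Level of each of the 10 genes in TPM (vertical axis, from 0) in the 4 treatment groups (horizontal axis). Circles are replicate 1, triangles replicate 2 and bars the mean of the 2 libraries. In the panels of Fosl1, Fosl2, Atf3 and Bach1 both P+B libraries lie below the 6 other libraries. The share of all tested genes with that pattern is not given here.

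Fosl1, which encodes FRA1, a FOS protein without a strong activation domain of its own, had the widest range. Its level was 47 and 67 TPM in the DMSO libraries, 29 and 35 in PFI-3, 28 and 43 in BI-9564, and 12 and 9 in P+B. Both P+B libraries lay below the 6 others, and the PFI-3 and BI-9564 libraries overlapped each other but not DMSO. The P+B mean was 10.5 TPM ± 2.12 (SD, n = 2), or 18.4% of the DMSO mean of 57 ± 14.1 (SD, n = 2). The log2 fold change was -2.33 (SE 0.25, 95% interval -2.91 to -1.74, limma adjusted p = 0.00296), and Fosl1 had rank 22 from the lowest among the 10222 tested genes. Against DMSO, PFI-3 gave -0.80 (interval -1.38 to -0.21, limma adjusted p = 0.594) and BI-9564 gave -0.68 (interval -1.26 to -0.09, limma adjusted p = 0.282). Neither was called. The gene spans chr19:5447547-5455946 on the plus strand, and its span overlaps Ccdc85b on the other strand. The strand setting of the counting is not given in the sources used here, so reads from the shared stretch cannot be assigned to one of the genes with certainty.

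Fosl2, the gene of FRA2, differed less. Its level was 35 and 34 TPM in DMSO, 24 and 29 in PFI-3, 35 and 33 in BI-9564, and 19 and 14 in P+B. The BI-9564 libraries overlapped DMSO, the PFI-3 libraries lay below DMSO, and the P+B libraries lay below all others. The P+B mean of 16.5 TPM was 47.8% of the DMSO mean. The log2 fold change in P+B was -1.04 (SE 0.17, 95% interval -1.44 to -0.64, limma adjusted p = 0.0169), against -0.37 (interval -0.77 to 0.03) with PFI-3 and -0.02 (interval -0.42 to 0.38) with BI-9564, neither of which was called. No annotated gene overlaps the span of Fosl2 (chr5:32135801-32157842, plus strand). Fosl1 and Fosl2 were among the genes shown by the study from these same libraries, so their direction here is not independent evidence. For Fosl2 the study also reported RT-PCR, a separate assay. There it described reduced activation of JUN targets, Fosl2 among them, with the compounds singly or combined. The libraries here differ for BI-9564 alone, where the Fosl2 mean was 98.6% of the DMSO mean. The study's text also names RT-PCR for repression of Fosl1 by the compounds, but the legend of the panel it cites names RNA-seq.

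Fos and Fosb, the genes best known for rapid induction by serum, were near the limit of the unit in every library. Fos was listed at 1 and 0 TPM in DMSO, 2 and 0 in PFI-3, 1 and 1 in BI-9564, and 2 and 2 in P+B. Fosb was listed at 1 and 2 in DMSO, 1 and 0 in PFI-3, 1 and 1 in BI-9564, and 0 and 0 in P+B. With whole-number values this small no difference could be resolved for either gene.

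Fosl1 and Fosl2 thus supplied nearly all of the FOS family RNA. The 4 FOS family genes summed to 93.5 TPM ± 13.4 in DMSO, 60 ± 5.66 in PFI-3, 71.5 ± 9.19 in BI-9564 and 29 ± 5.66 in P+B (SD, n = 2 each). The make-up of that sum shifted as well. Fosl1 supplied 60.5% ± 6.43 of it in DMSO and 36.2% ± 0.26 in P+B, and Fosl2 supplied 37.3% ± 6.12 and 56.8% ± 1.11 (SD, n = 2). In both DMSO libraries Fosl1 stood above Fosl2 in TPM, and in both P+B libraries below it. Per 1000 TPM of Jun, the FOS family sum was 39.2 ± 4.84 in DMSO, 32.2 ± 4.90 in PFI-3, 28.6 ± 3.88 in BI-9564 and 16.3 ± 6.68 in P+B (SD, n = 2). With 2 libraries against 2, an exact permutation test cannot go below p = 0.333, so these sums carry no test.

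**Figure D2:**
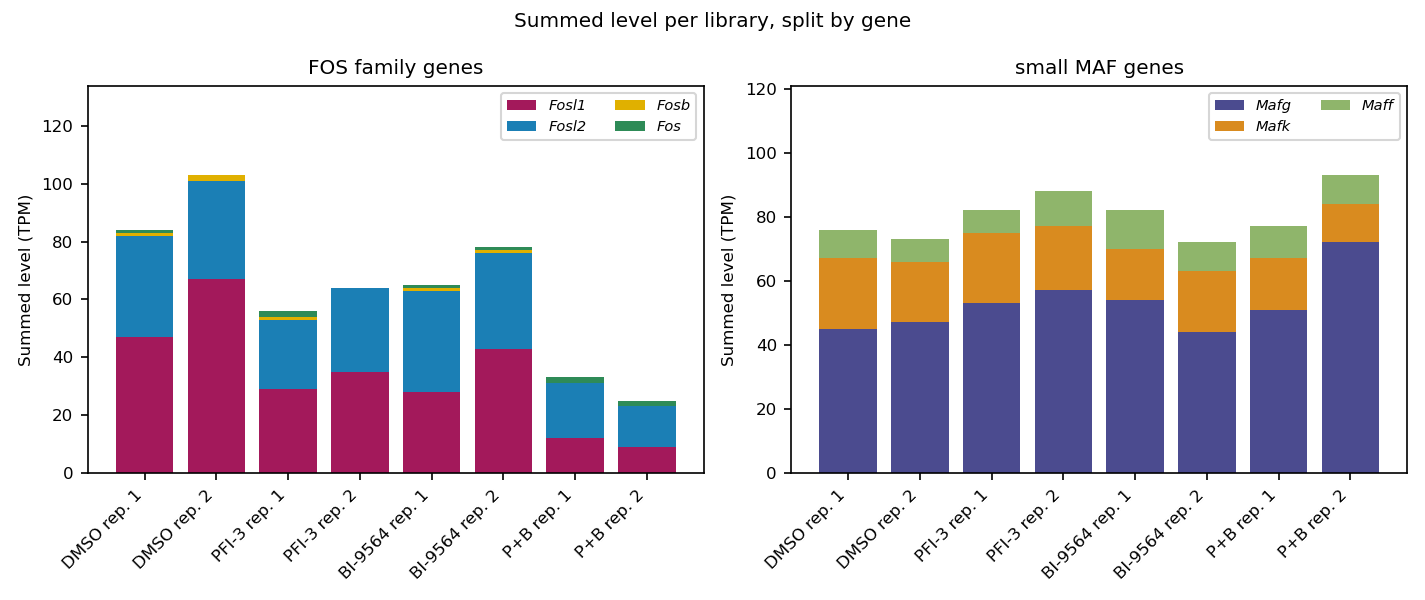
Summed TPM of the FOS family genes (left) and the small MAF genes (right) in each of the 8 libraries, stacked by gene from 0. The FOS family bars average 93.5 TPM in DMSO and 29 TPM in P+B, with Fosl2 the larger piece in P+B, and the small MAF bars average 74.5 TPM in DMSO and 85 TPM in P+B.

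Atf3, a stress-induced bZIP gene, had its lowest values in P+B and its next lowest in PFI-3. Its level was 29 and 32 TPM in DMSO, 17 and 20 in PFI-3, 29 and 34 in BI-9564, and 10 and 13 in P+B. The BI-9564 libraries overlapped DMSO, the PFI-3 libraries lay below both of those groups, and the P+B libraries were the lowest. The P+B mean was 11.5 TPM, 37.7% of the DMSO mean, with a log2 fold change of -1.34 (SE 0.18, 95% interval -1.76 to -0.93, limma adjusted p = 0.00660). With PFI-3 the log2 fold change was -0.69 (interval -1.11 to -0.28, limma adjusted p = 0.514), and with BI-9564 it was 0.04 (interval -0.37 to 0.46), so neither compound alone gave a call. The span of Atf3, chr1:191170296-191218039 on the minus strand, holds the small RNA gene Gm24748 on the other strand.

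Jdp2, the closest relative of Atf3, was low throughout. It was listed at 3 and 2 TPM in DMSO, 3 and 3 in PFI-3, 1 and 1 in BI-9564, and 2 and 2 in P+B. Both BI-9564 values were the lowest of the 8, on a scale where the steps are 1 TPM. When genes averaging 1 TPM or more were tested, the Jdp2 log2 fold change with BI-9564 was -0.79 (95% interval -1.60 to 0.02, limma adjusted p = 0.370) and that with P+B was -0.21 (interval -1.02 to 0.60), neither called. Atf3 held 92.4% of the summed Atf3 and Jdp2 RNA in DMSO and 85% in P+B.

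Bach1 varied over a small range. Its level was 60 and 67 TPM in DMSO, 50 and 51 in PFI-3, 57 and 62 in BI-9564, and 45 and 47 in P+B. The replicates were close, the P+B libraries lay below the 6 others, and the PFI-3 libraries lay between P+B and BI-9564. The log2 fold change in P+B was -0.45 (SE 0.11, 95% interval -0.71 to -0.20, limma adjusted p = 0.0572), and that with PFI-3 was -0.32 (interval -0.58 to -0.07). With the replicate number as a block the P+B value reached an adjusted p of 0.0214 in limma, but the size stayed under the 1.5-fold limit in both fits, so Bach1 was not called.

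None of the 3 small MAF genes was called. Mafg had 45 and 47 TPM in DMSO, 53 and 57 in PFI-3, 54 and 44 in BI-9564, and 51 and 72 in P+B. Both P+B libraries lay above both DMSO libraries and differed widely from each other, and the log2 fold change of 0.39 (95% interval -0.01 to 0.79, limma adjusted p = 0.232) was not called. Mafk had 22 and 19 TPM in DMSO, 22 and 20 in PFI-3, 16 and 19 in BI-9564, and 16 and 12 in P+B, so that P+B lay below DMSO but met BI-9564 at 16. Its log2 fold change was -0.53 (interval -0.97 to -0.09, limma adjusted p = 0.154). Maff had 9 and 7 TPM in DMSO, 7 and 11 in PFI-3, 12 and 9 in BI-9564, and 10 and 9 in P+B, with overlapping groups and a log2 fold change of 0.23 (interval -0.41 to 0.87).

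With single compounds the small MAF log2 fold changes ran from 0.04 for Mafk to 0.25 for Mafg with PFI-3, and from -0.22 for Mafk to 0.35 for Maff with BI-9564, none called. The small MAF sum was 74.5 TPM ± 2.12 in DMSO, 85 ± 4.24 in PFI-3, 77 ± 7.07 in BI-9564 and 85 ± 11.3 in P+B (SD, n = 2). Mafg supplied 61.8% ± 3.66 of it in DMSO and 71.8% ± 7.91 in P+B, while Mafk supplied 27.5% ± 2.06 and 16.8% ± 5.57 (SD, n = 2). The span of Mafg overlaps Sirt7 on the same strand, and that of Mafk overlaps Tmem184a on the other.

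**Figure D3:**
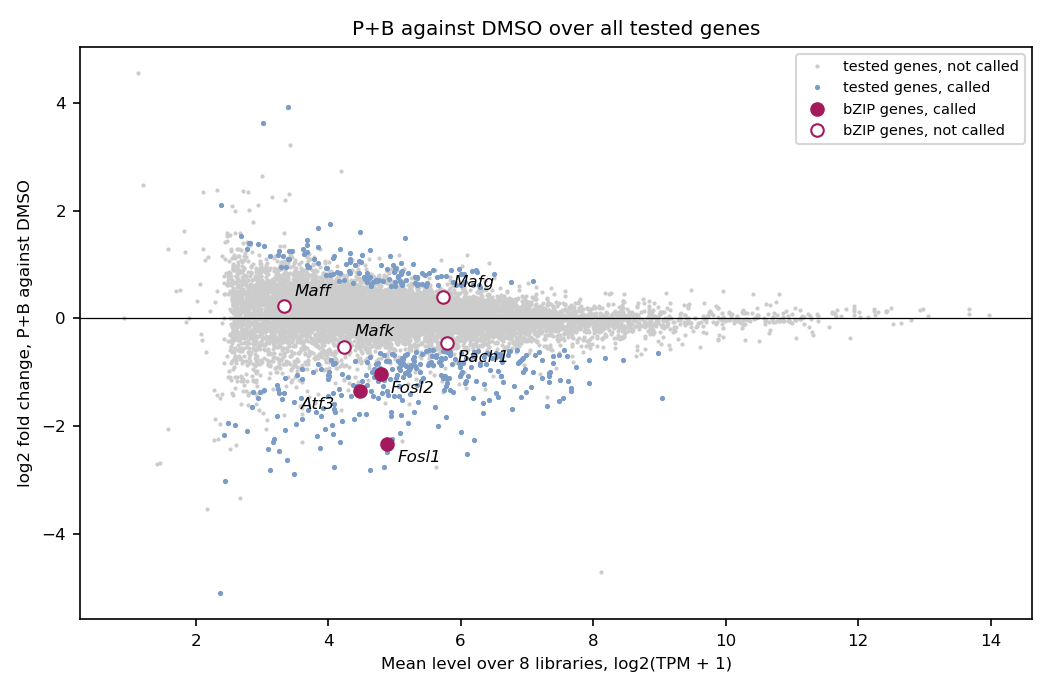
Log2 fold change of P+B against DMSO (vertical axis) against mean log2(TPM + 1) over 8 libraries (horizontal axis, log scale) for all tested genes, with called genes in blue and the 7 bZIP genes as circles. The 3 filled circles, Fosl1, Atf3 and Fosl2, are the called ones, at -2.33, -1.34 and -1.04.

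The order of levels among the genes changed with treatment. In DMSO the order of the means from the top was Bach1, Fosl1, Mafg, Fosl2, Atf3, Mafk and Maff. The libraries of Bach1 and Fosl1 overlapped from 60 to 67 TPM, and those of Fosl1 and Mafg met at 47. The other neighbours did not overlap. In P+B the order was Mafg, Bach1, Fosl2, Mafk, Atf3, Fosl1 and Maff, with Fosl2 and Mafk, Mafk and Atf3, Atf3 and Fosl1, and Fosl1 and Maff overlapping. Among all 7, 5 genes had both P+B libraries below both DMSO libraries, against 18.9% of all tested genes, and 1 had both above. No share over all tested genes is given here for both above, nor for both below all other libraries, so neither pattern is read as particular to these genes. The median log2 fold change of the 7 was -0.53, beside 0.06 over all tested genes.

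The combination was also compared with each compound alone. The dose of each compound in the RNA-seq combination is not given in the labels, so whether doses matched the single treatments is not known. Against PFI-3, Fosl1 fell further (log2 fold change -1.53, 95% interval -2.11 to -0.94, limma adjusted p = 0.0299), 1 of 7 called beside 1.31% of all genes. Fosl2 gave -0.66 (limma adjusted p = 0.110) and Atf3 -0.65 (limma adjusted p = 0.123), and the replicate block brought Atf3 to an adjusted p of 0.0382 and a call. Against BI-9564, Atf3 was lower in P+B (-1.38, interval -1.80 to -0.97, limma adjusted p = 0.0361), again 1 of 7, beside 0.196% of all genes. Fosl1 gave -1.65 there (limma adjusted p = 0.0714) and Fosl2 -1.01 (limma adjusted p = 0.110), and with the block these reached adjusted p values of 0.0233 and 0.0460 and were called. Bach1 gave -0.13 against PFI-3 and -0.36 against BI-9564, not called. The calls of Fosl1 against PFI-3 and of Atf3 against BI-9564 were both lost when the trend in limma was left out, and when any 1 library was left out, with adjusted p values from 0.0512 to 0.235 for Fosl1 and from 0.119 to 0.322 for Atf3.

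Between the single compounds, Atf3 stood higher with BI-9564 than with PFI-3 in all 4 library pairs, by 0.74 on the log2 scale (95% interval 0.32 to 1.15). The limma adjusted p of that difference was 0.151, and 0.0424 with the replicate block, where it was called. Without the block, 0.108% of all genes were called in this comparison. Fosl2 differed by 0.35 (interval -0.05 to 0.75), Bach1 by 0.23 (interval -0.02 to 0.49) and Fosl1 by 0.12 (interval -0.46 to 0.70). None of these was called, and the Fosl1 interval includes differences of up to 0.70 in favour of BI-9564.

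Whether P+B departed from the summed effects of its compounds was tested as an interaction on the log2 scale. Fosl1 lay 0.85 below the sum (-0.85, interval -1.67 to -0.02), Atf3 gave -0.69 (interval -1.28 to -0.10) and Fosl2 gave -0.64 (interval -1.21 to -0.07). The unadjusted limma p values were 0.0448, 0.0264 and 0.0311, and the adjusted p was 1 for each. No gene in the table was called by limma in this comparison (0%), where 333 of the 10222 had an unadjusted p under 0.05. The 3 comparisons with DMSO share the same DMSO libraries, and this interaction uses them too.

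**Figure D4:**
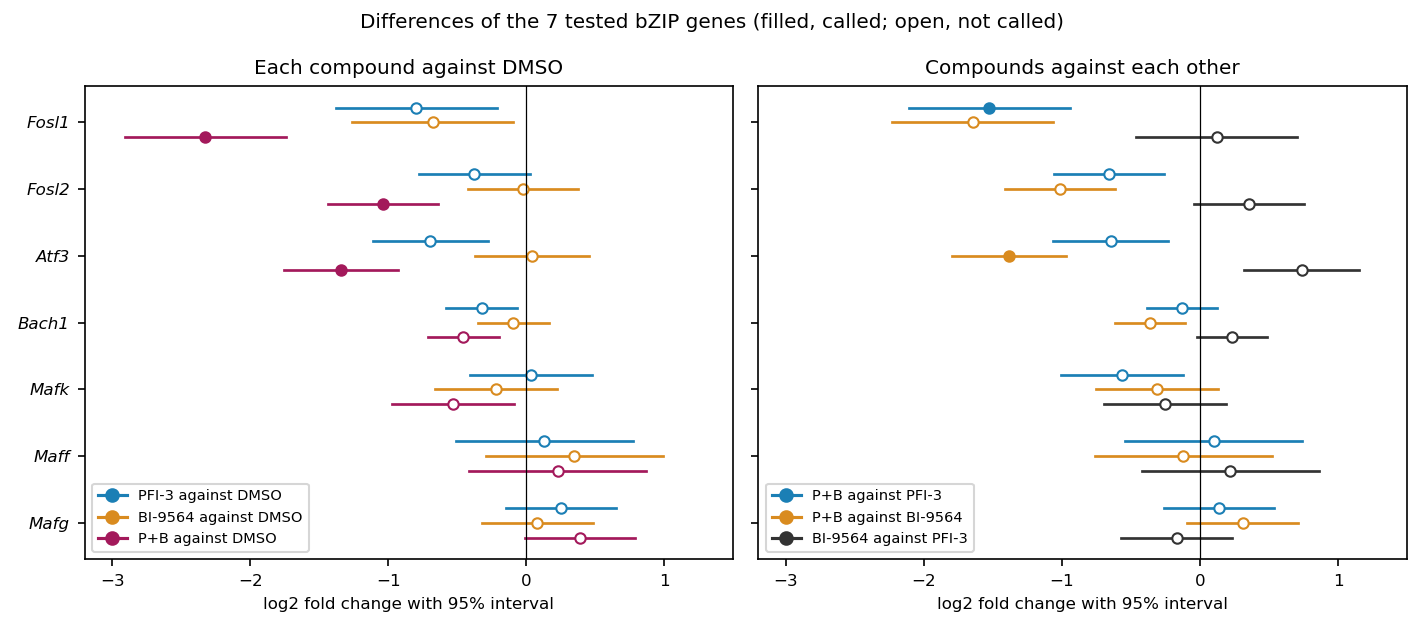
Log2 fold change (horizontal axis) with 95% interval of the 7 tested genes, for each treatment against DMSO (left) and between treatments (right). Filled points are called; the filled ones are Fosl1, Fosl2 and Atf3 in P+B against DMSO, Fosl1 against PFI-3 and Atf3 against BI-9564.

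The replicate series differed in Jun, which every group received as a transgene and which the table lists as a single value for transgene and endogenous gene. Jun had 1970 and 2877 TPM in DMSO, 1570 and 2227 in PFI-3, 2071 and 3011 in BI-9564, and 1569 and 2159 in P+B. It was higher in replicate 2 in all 4 groups, by 0.46 to 0.55 on the log2 scale, with a mean of 0.51 (95% interval 0.45 to 0.57, limma adjusted p = 0.000382), just under the fold limit. The embryonic stem cell markers also differed between the series: 7 of 7 were lower in replicate 2, with a median of -0.38, and Nanog (-0.81, limma adjusted p = 0.00429) and Zfp42 (-0.69, limma adjusted p = 0.00528) were called. The part of either shift in the values below was not tested. Atf3 was also higher in replicate 2 in all 4 groups, by 0.23 on average (interval 0.01 to 0.45, limma adjusted p = 0.231). Bach1 was higher in 4 of 4 as well, by 0.09 (interval -0.06 to 0.24). Fosl1 was higher in replicate 2 in DMSO, PFI-3 and BI-9564 and lower in P+B, with a mean of 0.25 (interval -0.13 to 0.62), and Fosl2 averaged -0.07 (interval -0.35 to 0.21). By limma, none of the 7 genes was called between the series, where 1.32% of all genes were, and 1 of 7 (Atf3) had an unadjusted p under 0.05, beside 19.8% of all genes.

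**Figure D5:**
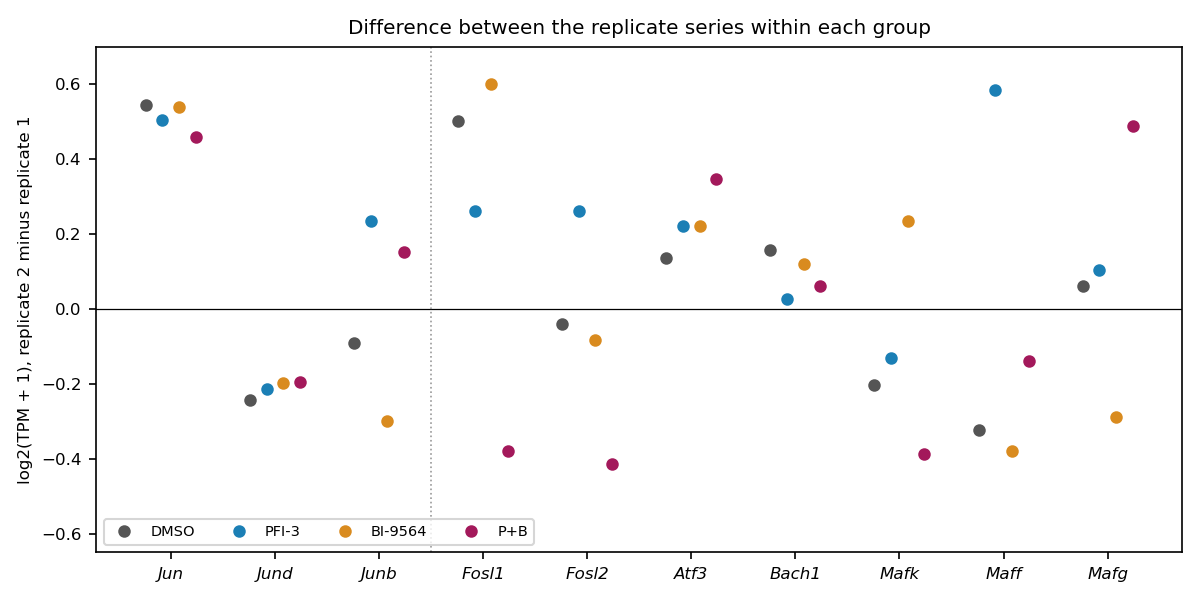
Replicate 2 minus replicate 1 in log2(TPM + 1) (vertical axis) within each treatment group (colours) for the JUN family (left of the dotted line) and the 7 tested genes. Jun lies between 0.46 and 0.55 in all 4 groups, Atf3 and Bach1 lie above 0 in all 4, and Fosl1 is above 0 in all groups except P+B.

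Within each series the P+B difference held its direction. In log2(TPM + 1), P+B minus DMSO was -1.88 in replicate 1 and -2.77 in replicate 2 for Fosl1, -0.85 and -1.22 for Fosl2, -1.45 and -1.24 for Atf3, and -0.41 and -0.50 for Bach1. Jun itself was -0.33 and -0.41, with a log2 fold change in limma of -0.37 (interval -0.96 to 0.22, adjusted p = 0.437, and 0.00156 with the block, under the fold limit). The share of Jun in the differences of its partners was not tested.

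As descriptions over the 8 libraries, which share treatments, Fosl1 correlated with Fosl2 at Pearson's r of 0.91 and with Atf3 at 0.87, and Fosl2 correlated with Atf3 at 0.89. The highest value among the members was 0.95 between Atf3 and Bach1. Of 6521 genes with a mean of at least 20 TPM, the 3 most like Fosl1 were Cldn6 (r = 0.993), which encodes a tight junction protein, Dusp14 (0.984), a phosphatase gene, and Mapk6 (0.982), a kinase gene. Cldn6 had 103 and 143 TPM in DMSO and 29 and 26 in P+B. The genes most like Fosl2 were Ptbp3 (0.969), Noct (0.968) and Phf23 (0.962), and those most like Atf3 were Map4k4 (0.962), Tnfrsf12a (0.958), a TWEAK receptor gene, and Bach1 (0.953). At r above 0.9 there were 100 genes for Fosl1, 32 for Fosl2 and 24 for Atf3.

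Of the JUN family genes, 1 was called in P+B. In P+B against DMSO, Junb fell by 0.74 on the log2 scale (95% interval -1.09 to -0.39, limma adjusted p = 0.0370), from 48 and 45 TPM to 26 and 29. Jund had 367 and 310 TPM in DMSO and 251 and 219 in P+B, a log2 fold change of -0.52 (limma adjusted p = 0.0537) that was not called. Thus 1 of 3 was called lower, beside 2.72% of all tested genes, with a median of -0.52 beside 0.06, and 0 of 3 were called by limma with PFI-3 or BI-9564, where 1 and 2 had an unadjusted p under 0.05, beside 6.79% and 14.9% of all tested genes.

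Of 28 other AP-1 and bZIP genes, 17 were tested and 2 were called lower in P+B, beside 2.72% of all tested genes, with a median log2 fold change of -0.15 beside 0.06. The 2 were Atf1, a CREB family gene, at -1.11 (limma adjusted p = 0.00282), and Xbp1, a gene of the unfolded protein response, at -0.87 (limma adjusted p = 0.0489). Ddit3 (CHOP) gave 0.93 and Nfil3 gave -0.65, neither called.

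Textbook targets of AP-1 were lower in P+B in most cases. Of 18 listed, 10 were tested, 7 were called lower (beside 2.72% of all tested genes) and 0 higher, and the median log2 fold change was -1.26, beside 0.06 for all tested genes. Among those called were Hbegf, an EGF receptor ligand (-2.30), Krt18, a keratin (-1.996), and Plaur, the urokinase receptor (-1.48). With PFI-3 the list's median was -0.33 and with BI-9564 it was -0.71, with 0 called by limma in each. At an unadjusted limma p under 0.05 there were 5 of 10 with PFI-3 and 8 of 10 with BI-9564, all lower. Beside them stood 6.79% and 14.9% of all tested genes in either direction. When the replicate block was used, 5 were called lower with BI-9564. The share of all tested genes called in that fit is not given here, so that count has no baseline.

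Targets of BACH1 with a small MAF, by contrast, had a median of -0.13 over 12 tested of 14 listed. Gclc, a subunit gene of the enzyme that starts glutathione synthesis, rose from 24 and 27 TPM in DMSO to 39 and 43 in P+B (log2 fold change 0.67, limma adjusted p = 0.0306), the 1 call, where 4% of all tested genes were called in either direction. Hmox1, the classic BACH1 target, had a log2 fold change of -0.24 (interval -0.83 to 0.35). Srxn1 gave -1.003 (limma adjusted p = 0.113), and with the replicate block it was called lower (limma adjusted p = 0.0189).

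Immediate early genes that serum induces together with Fos were mixed. Of 10 listed, 7 were tested, 1 was called higher and 2 lower, beside 4% of all tested genes called in either direction, with a median of -0.58. Btg2, an antiproliferative gene, rose (log2 fold change 1.27, limma adjusted p = 0.0273). Ier3 (-1.87, limma adjusted p = 0.0161) and Dusp1, a MAP kinase phosphatase gene (-1.20, limma adjusted p = 0.00100), fell, and Zfp36 gave -0.77, not called. Egr1, Egr2 and Egr3 were at 0 or 1 TPM in every library, as low as Fos and Fosb.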

How the data were processed

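RNA-seq was analysed from 8 libraries, 2 in each of 4 groups given by the sample labels. Per the labels' processing notes, the authors used bcl2fastq, Bowtie2 2.2.5 and RSEM 1.3.0 with mm10, and deposited 1 table of 50600 genes. The deposited score values are TPM that the authors wrote as whole numbers, so they were handled as a score on a log scale and not as counts. All values were whole, and no count test was possible. Here log2(TPM + 1) was fitted in limma 3.58.1 (R 4.3.3) with an intensity trend, all 4 groups together, over genes with a mean of at least 5, and p-values were adjusted by the Benjamini-Hochberg method. The script was tested on simulated data. Whether rounding was to the nearest whole number is not stated. The members and lists were chosen with earlier results of these data known, and the lists come from general knowledge. Named genes were all 10 members, up to 4 genes per list with the largest P+B difference, the JUN family, and the 3 genes most correlated with each called member. Hmox1, Egr1, Egr2 and Egr3 fall outside that rule and were added after their values were seen, and 1 gene that the rule names is not reported here. Replicate numbers are shared across groups in the labels. Deviations from the group means correlated at r = 0.143 to 0.236 in all 6 pairs of groups, so a fit with the number as a block was read beside the main one. Positions are from GENCODE M21 (GRCm38) and promoters from RefSeq (GRCm38.p6). Alternatives covered pseudocount, filter, scaling, trend, block and leaving out libraries.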

Additional observations from a re-analysis of the deposited data

How the results depend on the processing

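In P+B against DMSO, 3 of the 7 tested genes were called in the fit as reported, with the replicate block, with pseudocounts of 0.5 and 5, with filters at a mean of 1 and 20, with both other scalings and with no trend. With no filter on low values beyond leaving out genes at 0 in every library, 2 were called, Fosl2 having a limma adjusted p of 0.0536. With only the libraries compared, 0 were called, and without single libraries the count ran from 1 to 3. For P+B against PFI-3 the count was 1, and it was 2 with the replicate block and 0 with a mean of at least 1, no filter, no trend, only the libraries compared, or any library left out (range 0 to 0). For P+B against BI-9564 the count was 1, 3 with the replicate block, 2 with a mean of at least 20 and 0 in the same settings as against PFI-3 (range 0 to 0 with a library left out). For BI-9564 against PFI-3 it was 0, and 1 with the replicate block. The block changed no other call of a member. The cause of these changes was not tested. Shares of all tested genes called under each alternative setting are not given here. The counts under those settings are therefore not read as particular to these 7 genes. Directions that turned were near 0: with median centring, Mafk with PFI-3 gave -0.0121 and Atf3 with BI-9564 gave -0.00486. Leaving out single libraries gave -0.0656 to 0.136 for Mafk and -0.161 to 0.424 for Maff with PFI-3. With BI-9564 it gave -0.0688 to 0.154 for Atf3, -0.0624 to 0.227 for Mafg and -0.0621 to 0.0203 for Fosl2. It also gave -0.180 to 0.421 for Fosl1 between BI-9564 and PFI-3, and -0.179 to 0.0466 for Fosl2 between the replicate series. In P+B against DMSO it gave -2.58 to -2.07 for Fosl1, -1.52 to -1.17 for Atf3 and -1.24 to -0.83 for Fosl2. Leaving 1 library in a group assumes that it varies like the other groups. The settings were not run for genes outside the 7. Whole-number TPM limits what can be resolved for Fos, Fosb, Jdp2 and Maff.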
